A study of Rattus norvegicus with 4 samples.

Results

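The miR-192, miR-194 and miR-215 microRNAs come from 2 small gene clusters, 1 pairing miR-194 with miR-192 and the other pairing miR-194 with miR-215. They were followed here in RNA of exosomes, vesicles shed by cells, from rat adipose tissue (Exo-AT) and from rat adipose stem cells (Exo-ADSCs). Members were chosen by name: every sequenced read form (tag) on a hairpin named rno-mir-192, rno-mir-194 or rno-mir-215, with copy numbers removed, which makes 3 of the 262 named miRNA genes with a tag. They took 19 of 4102 tags in Exo-ADSCs2, 2 of 989 in the library Exo-AT1 and 5 of 3600 in Exo-AT2 (libraries are called by their titles, group and replicate number).

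The study holds 4 libraries, 2 per group, and asked which miRNAs the vesicles of the tissue and of its stem cells carry. Exo-AT came from minced fat of SD rats aged 4 weeks, stirred at 100 rpm in 75 mL of medium for 3 days, and Exo-ADSCs from passage 3 cells in serum-free medium for 3 days. No genetic change and no drug treatment separates the groups, and the medium of both held penicillin and streptomycin. An explant holds all cell types of the fat, whereas the stem cells were cultured alone, and no label says whether replicates came from separate animals or cultures. The p-values below therefore speak of these libraries and their spread, whose source may be technical. Tag counts were used for 3 libraries, since the file of Exo-ADSCs1 holds only a summary by read number. Exo-ADSCs values thus rest on 1 library and have no SD, and both Exo-AT files carry the same sample name inside.

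A miRNA is cut from a hairpin precursor and guides a silencing complex to messenger RNAs, mainly through its seed, bases 2 to 8 from the 5′ end. miR-192, miR-194 and miR-215 are best known from the epithelia of gut, liver and kidney, where hepatocyte nuclear factors drive both clusters, and as miRNAs raised by the tumour suppressor p53. miR-192 has also been studied in fibrosis of the kidney. They are not usual markers of fat or of mesenchymal stem cells.

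The mature sequences show which members share a seed. They are RefSeq's (GRCr8 assembly), and capitals mark the seed.
miR-192-5p: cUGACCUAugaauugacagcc
miR-215-5p: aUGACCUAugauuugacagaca
miR-194-5p: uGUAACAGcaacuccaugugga
miR-192-5p and miR-215-5p hold the same seed, UGACCUA, and 18 of 21 compared bases are identical. Counted from the 5′ end, the differences between miR-192-5p and miR-215-5p are C1A, A12U and C20A. No other mature miRNA of the RefSeq table has this seed, and none but miR-194-5p has GUAACAG. RefSeq names the mature form of miR-215 without an arm, and it is written miR-215-5p here because it lies in the first arm of its hairpin.

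The hairpins show where the reads could come from, and why the copies of miR-194 are hard to tell apart. Capitals mark the mature miRNAs that RefSeq lists.
mir-194-2: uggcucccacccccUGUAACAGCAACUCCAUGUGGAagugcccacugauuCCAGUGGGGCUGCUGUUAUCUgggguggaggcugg
mir-192: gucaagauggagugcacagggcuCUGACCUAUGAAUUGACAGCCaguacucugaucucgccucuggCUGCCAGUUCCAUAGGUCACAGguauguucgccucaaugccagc
mir-194-1: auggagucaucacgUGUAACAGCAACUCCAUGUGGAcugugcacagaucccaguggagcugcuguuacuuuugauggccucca
mir-215: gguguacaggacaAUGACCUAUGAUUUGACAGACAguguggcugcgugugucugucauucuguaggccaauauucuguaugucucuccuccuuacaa
In GRCr8, mir-194-2 lies at chr1:212994024-212994108 and mir-192 at chr1:212994209-212994318, both on the + strand, 100 bases apart and between the protein-coding genes Atg2a and Ehd1. On chromosome 13, mir-194-1 lies at chr13:99382716-99382798 and mir-215 at chr13:99382990-99383086, also on the + strand, 191 bases apart and inside the span of Iars2. The hairpins of the deposited files equal RefSeq's for mir-192, mir-194-1 and mir-194-2, while the mir-215 hairpin of the files has 101 bases, 2 of them unresolved, against 97 in RefSeq.

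All member reads came from the 5p arm. miR-192-5p was found in all 3 libraries and was the most abundant member in each, and miR-194-5p and miR-215-5p were found in Exo-ADSCs2 alone. No tag of the opposite arms, such as miR-192-3p, was present in any of the 3 libraries. The 5p share was thus 100% of 171 counts of miR-192 in Exo-ADSCs2 (Wilson 95% interval 97.8 to 100) and 100% of 52 counts in Exo-AT2 (93.1 to 100).

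miR-192-5p had 171 counts in Exo-ADSCs2, 7 in Exo-AT1 and 52 in Exo-AT2. The libraries differ in depth, with 97204, 9134 and 136024 counts on named hairpins in that order. Scaled to these totals (CPM, counts per 1000000), miR-192-5p stood at 1759 CPM in Exo-ADSCs2 (Wilson interval 1515 to 2043), at 766 CPM in Exo-AT1 (371 to 1581) and at 382 CPM in Exo-AT2 (292 to 501). Both Exo-AT libraries were below Exo-ADSCs2, and the intervals of the 2 Exo-AT libraries overlapped. That of Exo-AT1, the shallow library, also reached into the Exo-ADSCs interval.

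miR-194-5p had 23 counts in Exo-ADSCs2 and 0 in both Exo-AT libraries, and miR-215-5p had the same 23, 0 and 0. In Exo-ADSCs2 that is 237 CPM each (interval 158 to 355). The 3 counts that a count of 0 allows are 328 CPM in Exo-AT1 and 22.1 CPM in Exo-AT2. On this scale the 0 counts of Exo-AT1 therefore did not exclude a level like that of Exo-ADSCs2, and the absence of reads rests on Exo-AT2. The files list no tag with fewer than 2 reads, so a few reads scattered over different forms would be missing from each library. Reads carry no molecular identifiers, and intervals and limits cover counting error only.

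**Figure D1:**
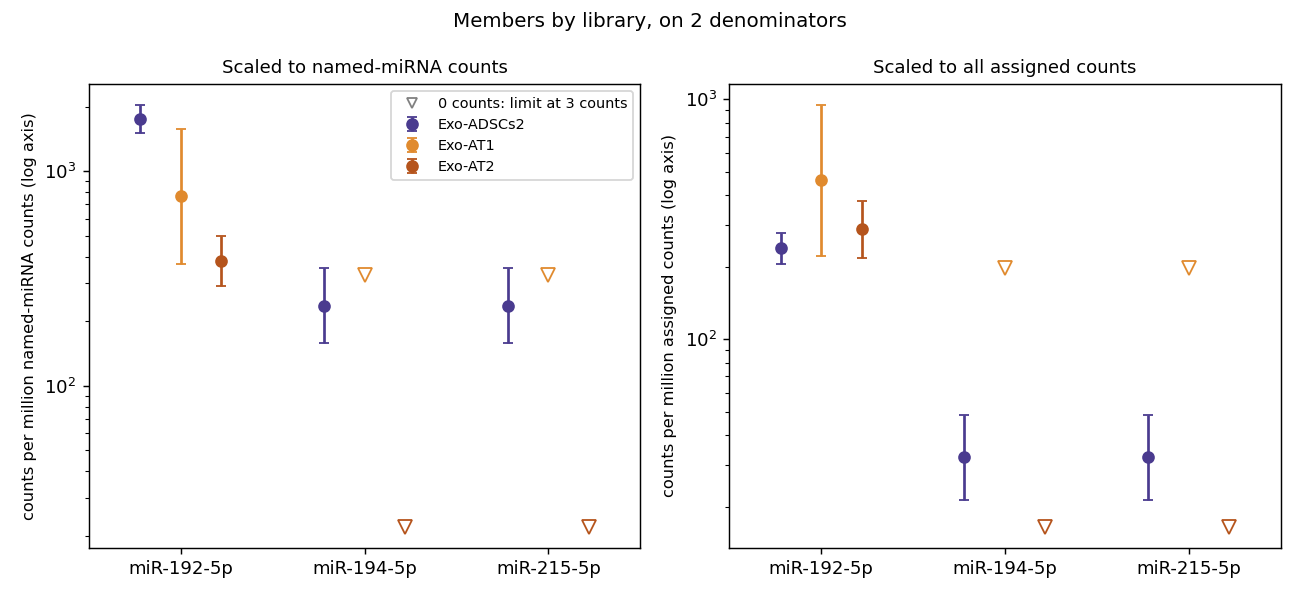
Level of each member in the 3 libraries with Wilson 95% intervals, as CPM of named-miRNA counts (left) and of all counts assigned to hairpins (right), on log axes; open triangles stand at the limit of 3 counts where a library had 0. On the left miR-192-5p falls from 1759 in Exo-ADSCs2 to 766 and 382 in Exo-AT, and on the right Exo-ADSCs2 is the lowest of the 3 libraries, at 239.

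Scaled by TMM, which sets libraries on the bulk of their miRNAs, miR-192-5p was at 2652 CPM in Exo-ADSCs2 and at 552 CPM in Exo-AT1 and 352 CPM in Exo-AT2, 452 ± 142 CPM (SD, n = 2). The quasi-likelihood test of edgeR called it lower in Exo-AT, with a log2 fold change of -2.68 (SE 0.57, adjusted p = 2.49e-05 by Benjamini-Hochberg over 183 tested miRNAs). For miR-194-5p and miR-215-5p the same test gave adjusted p = 0.013 each (edgeR), but both entered it on the counts of Exo-ADSCs2 alone, the group where they are high, so these p-values are given as the fit's output and nothing rests on them. With the Exo-AT group at 3 counts over both libraries, each was at least 19.1-fold lower there on the TMM scale, which takes the 23 counts of Exo-ADSCs2 as exact. With the counting error of those 23 the lower limit of an exact (Clopper-Pearson) 95% interval was 14.3-fold. With the 23 counts again taken as exact, the bound was 1.51-fold against Exo-AT1 alone and 17.6-fold against Exo-AT2 alone. For Exo-AT1 the TMM factors put the limit of 3 counts below the Exo-ADSCs2 level, and total named counts put it above. All 3 members passed the filter on low counts and were called lower, beside 36 of all 183 tested miRNAs (19.7%). For the same reason nothing is read from the number of members called. Both Exo-AT libraries lay below Exo-ADSCs for miR-192-5p, as they did for 37.7% of all tested miRNAs. For miR-194-5p and miR-215-5p, which entered on Exo-ADSCs2 alone, the 0 counts of Exo-AT fix this order, and nothing is read from it. In rank, 28 of the 183 had a lower log2 fold change than miR-192-5p and 5 a lower one than miR-194-5p and miR-215-5p, whose fitted values depend on the prior count. With 1 Exo-ADSCs library the fit has 1 residual degree of freedom per miRNA and takes the spread of the Exo-AT libraries for that of the lone library.

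**Figure D2:**
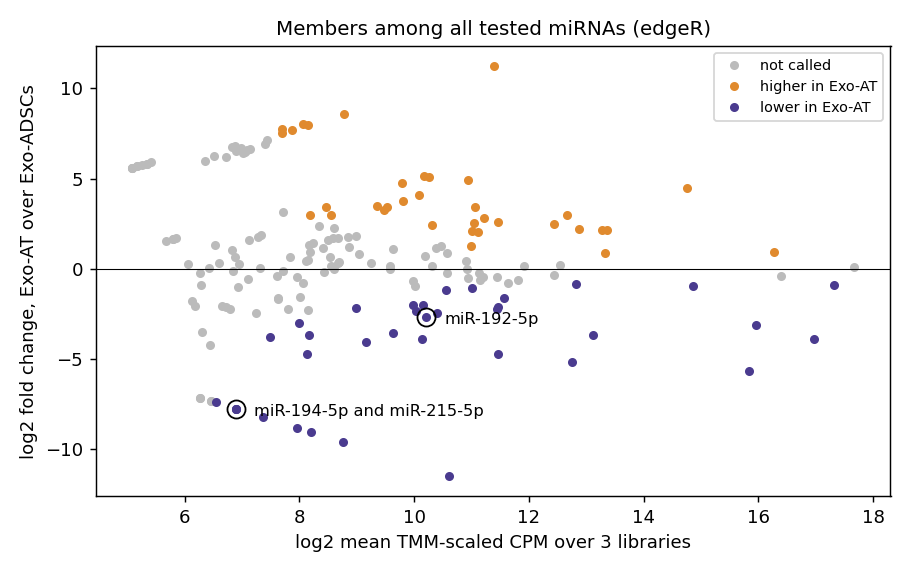
Log2 fold change (Exo-AT over Exo-ADSCs) of the 183 tested miRNAs against the log2 of their mean TMM-scaled CPM over 3 libraries, coloured by the edgeR call, with the members circled. miR-192-5p stands at -2.68, and miR-194-5p and miR-215-5p fall on 1 point among the forms with 0 counts in 1 group, whose height depends on the prior count.

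The direction depended on what the counts were divided by. Named miRNAs held 13.6% of the counts assigned to hairpins in Exo-ADSCs2, against 60.1% and 75.1% in the Exo-AT libraries, the rest lying on hairpins that the authors predicted. Scaled in the same way to all assigned counts, miR-192-5p was at 239 CPM in Exo-ADSCs2 and at 461 and 287 in Exo-AT, so that Exo-ADSCs was then the lowest. The edgeR test with that scaling, added after the data were seen, gave a log2 fold change of miR-192-5p of 0.53 (SE 0.70, adjusted p = 0.482) and did not call it. It moved the median log2 fold change of all tested miRNAs from 0.38 to 3.88. Relative to that median, miR-192-5p was at -3.05 with TMM, -3.07 with DESeq2 size factors, -3.05 with total named counts and -3.35 with all assigned counts. A scaling shifts all miRNAs by about the same amount, so this distance is nearly fixed by construction and is no sign of stability, and its last value is over 169 tested miRNAs in place of 183. miR-194-5p and miR-215-5p stood at 32.2 CPM of all assigned counts in Exo-ADSCs2, against 0, at least 2.1-fold lower in Exo-AT (lower limit of the exact interval 1.58-fold). With total named counts that bound is 11.4-fold (lower limit 8.58-fold), and neither was called (adjusted p = 0.0804 by edgeR).

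When the authors' predicted hairpins entered the edgeR test as further features, 0 of 401 features were called, with 25 at an unadjusted p under 0.05. The log2 fold change of miR-192-5p was then -2.54 (SE 1.34, adjusted p = 0.543), and the other 2 members did not pass the filter on low counts.

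**Figure D3:**
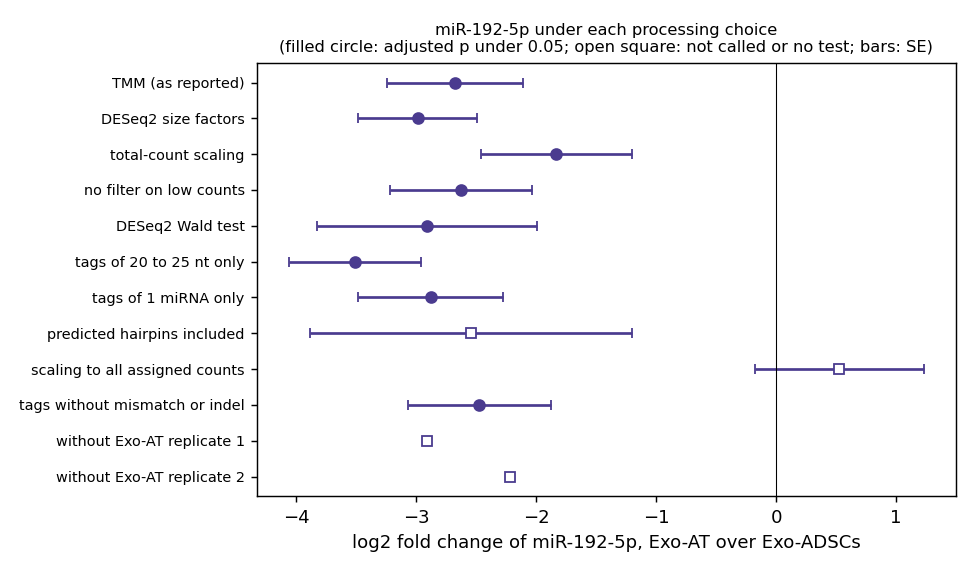
Log2 fold change of miR-192-5p (Exo-AT over Exo-ADSCs) under each processing choice, with SE bars where a test was made; filled circles had an adjusted p under 0.05 and open squares were not called or had no test. The value is below 0 in all but the scaling to all assigned counts, where it is 0.53.

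The members' make-up can be compared within a library, where scaling plays no part. In Exo-ADSCs2 miR-192 held 78.8% of the members' 217 counts (Wilson interval 72.9 to 83.7), and miR-194 and miR-215 held 10.6% each (7.17 to 15.4). In Exo-AT2 miR-192 held all 52, and a count of 0 of 52 allows each of the others up to 5.77%. That limit is below the 10.6% of Exo-ADSCs2 and below its interval. The 7 counts of Exo-AT1, all from miR-192, allow up to 42.9% and show no difference. As only 1 library per side is deep enough, this compares those libraries and not the conditions.

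The copies of miR-194 differ just after the mature end. In the tags of Exo-ADSCs2 capitals mark bases 2 to 8 as read, here the seed.
Both copies, 6 counts: tGTAACAGcaactccatgtgga
mir-194-1, 6 counts: tGTAACAGcaactccatgtggac
mir-194-2, 4 counts: tGTAACAGcaactccatgtggaa
The 6 counts of the first tag were divided by the authors' files, 3 to each copy. Tags placed on 1 copy alone gave 13 counts for mir-194-1, the neighbour of mir-215, and 4 for mir-194-2, the neighbour of mir-192. A base added to the end of a finished miRNA cannot be told apart from the copy's own base in the 6 and 4 counts that end 1 base past the mature form. Of the 13, a further 2 counts ended 2 bases past the mature form with the mismatch T24A (hairpin base, position in the tag, tag base). Another 5 began 3 bases early, with an insertion, and ended at the mature end that both copies share, so they hardly identify a copy. Leaving out both kinds, 6 counts for mir-194-1 stand against 4 for mir-194-2, too few to order the copies. The counts per copy thus do not show the order of the neighbours, miR-192 with 171 and miR-215 with 23, but rest on few reads.

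Member reads had the length of intact miRNAs. In Exo-ADSCs2, 84.8% of miR-192-5p counts had 21 to 23 nt (Wilson interval 78.7 to 89.4), as did 69.6% of miR-194-5p (49.1 to 84.4) and 100% of miR-215-5p counts (85.7 to 100). Over all named miRNAs of that library the share was 24.8%. Among its 89 miRNAs with at least 20 counts the median share was 28.4%, and 12 of them had a higher share than miR-192-5p. The most common length of all named reads there was 18 nt (30.4% of counts), a length at which miR-192-5p had 0 counts. In Exo-AT the share of miR-192-5p was 100% of 7 counts and 94.2% of 52, against 71.5% and 75.8% for all named miRNAs. The mean length of miR-192-5p tags was 21.3, 21.6 and 21.2 nt in Exo-ADSCs2, Exo-AT1 and Exo-AT2. Counting only tags of 20 to 25 nt, which removes most reads of some other miRNAs in Exo-ADSCs, moved the log2 fold change of miR-192-5p to -3.51 (SE 0.55, adjusted p = 0.00508 by edgeR).

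**Figure D4:**
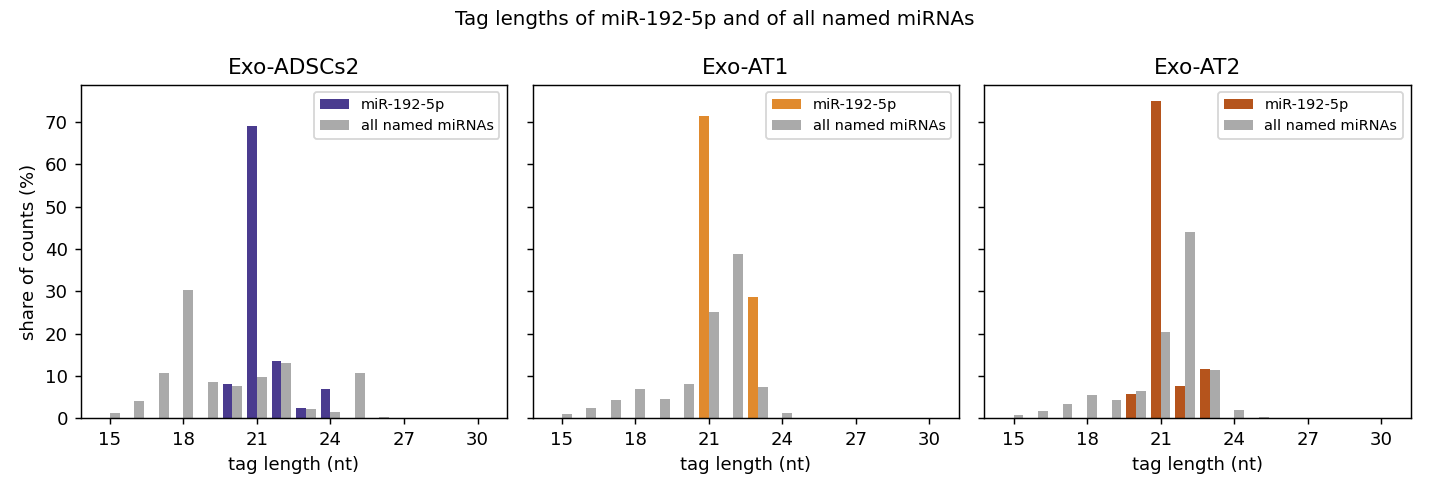
Share of counts by tag length in nt for miR-192-5p (coloured) and for all named miRNAs (grey) in the 3 libraries. miR-192-5p peaks at 21 nt in each, while all named miRNAs peak at 18 nt in Exo-ADSCs2 and at 22 nt in both Exo-AT libraries.

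The same form led miR-192-5p in the 3 libraries, the exact RefSeq sequence. It is printed with examples of the other kinds of form, not with all forms. Bases 2 to 8 as read are in capitals, because a shifted start changes the seed.
RefSeq form: cTGACCTAtgaattgacagcc
T added at the end: cTGACCTAtgaattgacagcct
Inner mismatch: cTGACCTAtgaattgaccgcc
Start 1 base later: tGACCTATgaattgacagcc
Start 1 base later, longer: tGACCTATgaattgacagccagt
Start 1 base later, longer, A at the end: tGACCTATgaattgacagccaga
Start 3 bases earlier: cATCTGACctatgaattgacagcc
The RefSeq form had 86 of 171 counts in Exo-ADSCs2 (50.3%, interval 42.9 to 57.7), 5 of 7 in Exo-AT1 and 35 of 52 in Exo-AT2 (67.3%, 53.8 to 78.5). The intervals of the deeper libraries overlap, which is no test of a difference, and none was made. The form with T for the hairpin's A at its end (A22T) had 20 counts in Exo-ADSCs2 and 4 in Exo-AT2. The form with the inner mismatch A18C had 20 counts in Exo-ADSCs2 and 0 in both Exo-AT libraries. Exo-AT2 in turn had 4 counts of a form with C1A that has the first base of miR-215-5p and the inner bases of miR-192-5p, a form with 0 counts in the others.

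Tags that start 1 base later have the seed GACCTAT (written with T as read) in place of TGACCTA. They held 6.43% of miR-192-5p counts in Exo-ADSCs2 (11 counts, interval 3.63 to 11.2), 28.6% in Exo-AT1 (2 counts, 8.22 to 64.1) and 17.3% in Exo-AT2 (9 counts, 9.38 to 29.7). The shares were higher in Exo-AT. The intervals overlap, but overlap is no test of a difference, and none was made. The long form ending in A, with T23A, had 2 counts in Exo-AT1, 6 in Exo-AT2 and 0 in Exo-ADSCs2, whereas the long form that matches the hairpin had 4 counts in Exo-ADSCs2 and 0 in Exo-AT. These are counts of 6 or fewer and carry no test.

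**Figure D5:**
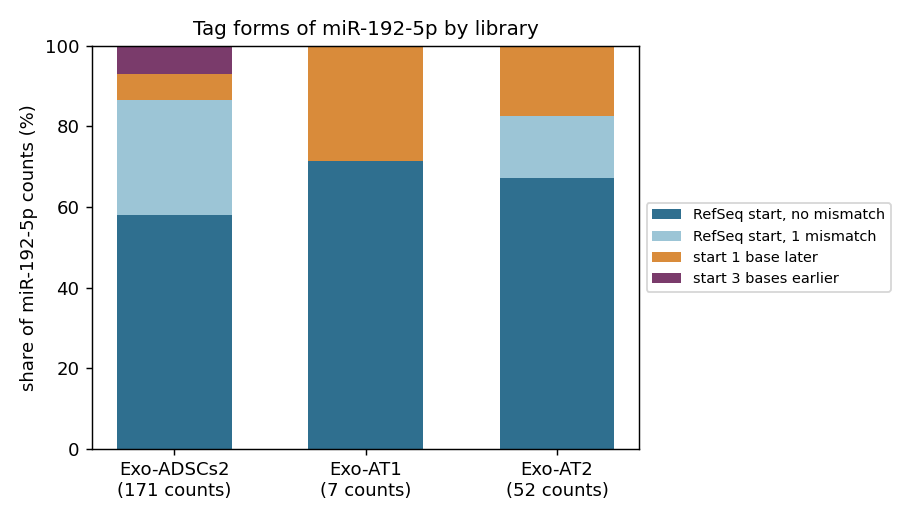
Share of miR-192-5p counts by tag form in each library, split by where the tag starts against the RefSeq form and by whether it has a mismatch. The RefSeq start without mismatch leads in each, with 57.9% in Exo-ADSCs2, 71.4% in Exo-AT1 and 67.3% in Exo-AT2, and the earlier start appears in Exo-ADSCs2 alone.

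In Exo-ADSCs2, tags that start 3 bases early, as counted in the tag, held 12 of 171 counts of miR-192-5p (7.02%, interval 4.06 to 11.9), 5 of 23 of miR-194-5p (21.7%, 9.66 to 41.9) and 0 of 23 of miR-215-5p. In both member tags the added bases include an insertion against the hairpin. On the hairpin the miR-192-5p tag begins at position 22, against 24 for the RefSeq form, and the miR-194-5p tag at 14, against 15. The miR-194-5p tag of this kind was gTATGTAAcagcaactccatgtgga, with bases 2 to 8 as read in capitals. miR-192-5p had 0 such counts of 7 in Exo-AT1 and 0 of 52 in Exo-AT2 (interval up to 6.88%). This interval overlaps that of Exo-ADSCs2, and no test of a difference was made for miR-192-5p. Over all named tags that hold the first 12 bases of a RefSeq mature form, such starts made up 10.3% of counts in Exo-ADSCs2 and 1.54% and 2.44% in Exo-AT1 and Exo-AT2.

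Mismatches and indels weighed most on miR-215-5p. Its tags in Exo-ADSCs2 were aTGACCTAtgatttgacagacc with 16 counts, whose last base differs from the hairpin (A22C), and the exact but shorter aTGACCTAtgatttgacagac with 7. The share of counts with a mismatch or indel was thus 69.6% for miR-215-5p (interval 49.1 to 84.4), against 35.7% for miR-192-5p (28.9 to 43.1), 30.4% for miR-194-5p (15.6 to 50.9) and 23.1% over all named counts of the library. Without such tags, a choice made with the data in view, miR-215-5p no longer passed the filter on low counts, miR-194-5p was not called (adjusted p = 0.0706), and miR-192-5p was at -2.47 (SE 0.60, adjusted p = 0.00188 by edgeR). No member tag aligned to a hairpin outside the members, named or predicted.

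The miRNAs whose levels over the 3 libraries were most like those of miR-192-5p were miR-103-3p, miR-140-3p and miR-100-5p. Likeness was the distance between log2 TMM-scaled CPM values (prior count 2) centred over 3 libraries, and it was 0.38, 0.56 and 0.63. miR-103-3p had 144, 6 and 62 counts, close to the 171, 7 and 52 of miR-192-5p, and 15 of the other 182 miRNAs lay within a distance of 1. For miR-194-5p and miR-215-5p the nearest were each other and miR-3557-5p, all with 23, 0 and 0 counts, and then miR-99b-5p at 0.03. With counts this low the prior count sets much of the distance, and 3 libraries give little to tell patterns apart.

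Other miRNAs known from epithelia did not share 1 direction. Of the epithelial list (miR-200a, miR-200b, miR-200c, miR-141, miR-429, miR-203a, miR-205, miR-183, miR-96, miR-182 and miR-375), 8 forms were tested. Of these, 3 were lower in Exo-AT (19.7% of all tested miRNAs were), 1 was higher (19.1% were) and 4 were not called. The median log2 fold change of the 8 was -0.03, beside 0.38 over all 183. Those lower were miR-203a-3p of the epidermis (-3.87, SE 0.60), and miR-183-5p (-2.45, SE 0.51) and miR-182-3p (-1.98, SE 0.56) of a cluster known from sensory epithelia. With total named counts miR-182-3p was no longer called. With all assigned counts 0 of the 8 were lower and 4 higher, beside 5 lower and 107 higher of all 169 tested miRNAs. miR-205-5p, of stratified epithelia, had 0, 5 and 46 counts and was called higher under the 4 scalings. It entered the test on the counts of Exo-AT alone, the group where it is high, so nothing rests on its call. The summed level of the list was 9273 TMM-scaled CPM in Exo-ADSCs2 and 2524 and 3445 in Exo-AT, and mir-429 and mir-96 had 0 counts in both Exo-AT libraries. The liver miRNA miR-122-5p, from another tissue rich in miR-192, had 22, 6 and 63 counts and was not called (0.38, SE 0.94). With all assigned counts miR-122-5p was called higher, as were 107 of all 169 tested miRNAs. The part of epithelial or liver cells in the members' levels was not tested.

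Of the other miRNAs linked to p53 (miR-34a, miR-34b, miR-34c, miR-107, miR-143, miR-145, miR-15a and miR-16), 7 forms were tested, of which 2 were higher in Exo-AT, 2 lower and 3 not called, beside 19.1% of all tested miRNAs called higher and 19.7% called lower. Their median log2 fold change was -2.18, beside 0.38 over all tested. miR-15a-5p (3.26, SE 0.88) and miR-16-5p (2.60, SE 0.47), which act on cell-cycle genes, were higher. miR-107-3p (-2.18, SE 0.81), a close relative of miR-103, and miR-143-3p (-0.87, SE 0.26) were lower. With total named counts neither was called, miR-143-3p then standing at 0.05. With all assigned counts miR-143-3p was called higher (2.33), as were 107 of all 169 tested miRNAs. miR-34a-5p, the best-known p53 target among miRNAs, had 16 counts in Exo-ADSCs2, 0 in Exo-AT1 and 2 in Exo-AT2 and was not called (adjusted p = 0.158, edgeR). miR-34b had no count in any of the 3 libraries.

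As a check of the labels, all 7 adipocyte and mesenchymal miRNAs of the list (miR-378a, miR-103, miR-107, miR-143, miR-145, miR-199a and miR-214) had counts in Exo-AT, with a summed level of 145859 and 125836 TMM-scaled CPM there and 250508 in Exo-ADSCs2. Most of each sum was miR-143-3p, at 139153 and 118716 CPM in Exo-AT and 234830 in Exo-ADSCs2. Of the 9 tested forms of this list 5 were lower in Exo-AT and 0 higher (19.7% and 19.1% of all tested miRNAs). With total named counts 1 was lower and 1 higher, beside 19 and 46 of all 183 tested miRNAs. With all assigned counts 0 of 8 tested were lower and 4 higher, beside 5 and 107 of all 169 tested miRNAs. The endothelial miR-126a, summed over its arms, was at 2761 and 4697 CPM in Exo-AT against 496, and the erythroid list (miR-486, miR-451 and miR-144) was at 36760 and 153737 CPM against 50539. The leukocyte list (miR-150, miR-142 and miR-223) was at 316 and 866 CPM against 233. In each of these 3 lists 1 form of 2 tested was called higher, miR-126a-3p, miR-486-5p and miR-150-5p, beside 19.1% of all tested miRNAs. With DESeq2 size factors miR-486-5p was not called. It was at 36603 TMM-scaled CPM in Exo-AT1, below the 49624 of Exo-ADSCs2, so its call rests on Exo-AT2. miR-150-5p had 0, 2 and 69 counts and entered the test on Exo-AT alone, where it is high, so nothing rests on its call. The part of other cell types in the members' levels was not tested.

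The authors' deposited table of 45 miRNAs listed as raised in Exo-AT names 0 of the members, so Exo-ADSCs1 adds no value for them.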

How the data were processed

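Small RNA of about 15 to 35 nt was read for 36 cycles, per the labels' protocols. Novoalign 2.07.11 and the rn6 assembly are named in the submitters' processing notes, with adaptor trimming and the hairpin release not given in the sources used here. The authors deposited whole-number counts per tag and hairpin, per the file headers, with a tag's reads divided between its hairpins. Their table of 45 miRNAs holds scores headed normalized reads, which the authors deposited without stating the factor, and only its names were used.

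Tags on named hairpins were summed to miRNAs over genomic copies, a tag being 5p where its middle did not pass the middle of the hairpin. edgeR 4.0.16 (R 4.3.3, two-sided quasi-likelihood test, TMM) was run on 3 libraries for miRNAs passing its default filter (minimum count 10, minimum total 15), with Benjamini-Hochberg adjustment and a threshold of 0.05. SE is the absolute log2 fold change over the root of F. DESeq2 1.42.0 was an alternative. The members and lists were chosen with earlier results of these data known. The text names each member form, the 3 nearest miRNAs, and of each list the called forms and at most 4 others. No paired analysis was possible because the libraries with tag counts share 1 replicate number. A count of 0 allows 3 counts. Intervals are Wilson 95% intervals.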

Additional observations from a re-analysis of the deposited data

How the results depend on the processing

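No paired analysis was possible because the libraries with tag counts share 1 replicate number. The log2 fold change of miR-192-5p ran from -2.91 without Exo-AT replicate 1 to -2.22 without Exo-AT replicate 2, and those of miR-194-5p and miR-215-5p from -8.25 to -6.79, values with no test. With predicted hairpins included miR-192-5p was at -2.54 and not called, and with all assigned counts it turned to 0.53. miR-194-5p and miR-215-5p lost their call with total-count scaling (-7.27 each) and with no filter on low counts (-7.70 each, adjusted p = 0.0557 by edgeR), and miR-194-5p without mismatched tags (-7.18). They kept it with DESeq2 size factors, DESeq2's test, tags of 20 to 25 nt and tags of 1 miRNA only. The numbers called, 35 higher and 36 lower, became 46 and 19 with total-count scaling, 107 and 5 with all assigned counts and 0 and 0 with predicted hairpins. The cause was not tested. The filter on low counts left no value for miR-194-5p and miR-215-5p with predicted hairpins or all assigned counts, nor for miR-215-5p without mismatched tags. With the arm set by tag start the 5p shares were the same. No member tag aligned outside the members, so leaving out shared tags could not change the length shares. The 9134 counts of Exo-AT replicate 1 limit every statement on absence.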
